A study of Mus musculus with 6 samples.

Results

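The minor and embryonic globin genes of the mouse were followed in left ventricular tissue of mice that carry human globin genes, in 3 sickle and 3 non-sickling control animals with 1 array each. The genes considered were Hbq1a, Hba-x, Hbb-bh1, Hbb-y and Ahsp. They were chosen with earlier results of these data known and matched by symbol to the array annotation. Of these 5 genes, 4 were measured, each by 1 array row, among 21506 genes tested. Ahsp, the chaperone of free alpha-globin, was not analysed here. The adult mouse globin genes have no row of their own and were left out.

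Sickle mice were homozygous for the sickle model alleles, with Hbatm1(HBA)Tow at the alpha-globin locus and Hbbtm2(HBG1,HBB*)Tow at the beta-globin locus. Control mice carried Hbatm1(HBA)Tow and the non-sickling allele Hbbtm3(HBG1,HBB)Tow, each written as homozygous. Both groups were on a mixed B6;129 background, and both carried human alpha-globin and gamma-globin genes, so engineered alleles were present in sickle and control alike at the 2 loci where the 4 measured genes lie. All animals were males of 10 to 14 weeks. The labels give separate mice and no batch, so the p-values rest on the spread between arrays of the same group. The limma p-values also draw on a variance shared over all genes. The tissue was whole left ventricle, in which more red cells and more RNA per red cell cannot be told apart.

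Haemoglobin is a tetramer of alpha-like and beta-like chains, and each gene cluster is broadly arranged along the chromosome in the order in which its genes are used in development. Hba-x encodes the zeta chain, the alpha-like globin of the embryo's first red cells. Hbb-y and Hbb-bh1 encode the embryonic beta-like chains of the same cells, and Hbq1a encodes theta-globin, an alpha-like chain without a settled function. In adults the embryonic genes are normally silenced, by factors that include Bcl11a for the beta-like genes, and GATA-binding and CACCC-binding factors are the main activators of globin promoters.

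The promoters are shown because Hbq1a and Hba-x of the alpha cluster passed the test and Hbb-bh1 and Hbb-y of the beta cluster did not. Hbq1b, a close copy of Hbq1a in the alpha cluster, did not pass either and is shown beside it. RefSeq (GRCm38.p6) held promoters for 3 of the 5 genes, Hbq1a, Hba-x and Hbb-y; each sequence runs 5′ to 3′ on the gene's own strand, from 250 bases before the start site to 50 bases after it. Capitals mark matches, searched on both strands, to a GATA word, a CACCC box, a CCAAT box or a TATA-like word. The GATA words searched were AGATAA and its variant with a final G, AGATAG, together with the forms that begin with T, namely TGATAA and also, again with a final G, TGATAG. The TATA-like words were TATAAA and, as used in some globin genes, CATAAA. In Hbb-y an opposite-strand GATA match and a CATAAA match overlap in 1 run of capitals.

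Hba-x, chr11:32276350-32276649, plus strand: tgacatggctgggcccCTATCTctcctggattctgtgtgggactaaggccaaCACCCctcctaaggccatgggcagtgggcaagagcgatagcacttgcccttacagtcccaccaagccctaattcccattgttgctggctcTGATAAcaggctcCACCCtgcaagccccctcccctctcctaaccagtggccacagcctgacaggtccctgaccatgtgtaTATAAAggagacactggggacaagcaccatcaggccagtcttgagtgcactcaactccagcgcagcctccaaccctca
Hbq1a, chr11:32299819-32300118, plus strand: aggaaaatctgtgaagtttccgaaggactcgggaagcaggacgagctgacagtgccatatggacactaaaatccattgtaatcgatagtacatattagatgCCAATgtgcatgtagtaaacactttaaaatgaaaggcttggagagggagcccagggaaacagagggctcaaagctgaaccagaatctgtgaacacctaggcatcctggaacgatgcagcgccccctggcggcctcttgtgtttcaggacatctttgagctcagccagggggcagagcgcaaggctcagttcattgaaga
Hbq1b, chr11:32286714-32287013, plus strand: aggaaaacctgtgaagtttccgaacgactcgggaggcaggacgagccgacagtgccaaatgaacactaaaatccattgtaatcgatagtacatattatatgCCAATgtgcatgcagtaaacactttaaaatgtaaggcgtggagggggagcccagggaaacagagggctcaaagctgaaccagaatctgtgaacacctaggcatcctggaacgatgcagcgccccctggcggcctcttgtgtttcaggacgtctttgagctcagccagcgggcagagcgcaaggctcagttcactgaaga
Hbb-y, chr7:103853158-103853457, minus strand: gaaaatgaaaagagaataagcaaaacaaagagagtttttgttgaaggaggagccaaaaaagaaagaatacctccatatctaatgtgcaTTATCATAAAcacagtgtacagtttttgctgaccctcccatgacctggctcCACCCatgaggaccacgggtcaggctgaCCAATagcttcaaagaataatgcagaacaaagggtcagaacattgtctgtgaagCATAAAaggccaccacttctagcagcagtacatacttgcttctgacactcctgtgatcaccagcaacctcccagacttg

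The embryonic promoters of Hba-x and Hbb-y each held GATA, CACCC and TATA-like words, with the last TATA-like word 28 bases (Hba-x) and 29 bases (Hbb-y) before the start site. Hba-x held 2 GATA matches and 2 CACCC matches, and Hbb-y held 1 of each and a CCAAT match 83 bases before the start. The Hbq1a window held a CCAAT match 149 bases before the start and no match to the other words. The same was found in Hbq1b, whose window matched that of Hbq1a at 286 of 300 aligned positions (95.3%). Among 32851 promoters of the same length, 29.8% held a GATA word, 57.5% a CACCC box, 37.4% a CCAAT box and 22.8% a TATA-like word, so these matches are common and are given as a description.

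The comparison asked which of these globin transcripts differ between ventricles of sickle and non-sickling mice. Hbq1a and Hba-x, of the alpha cluster, rose in sickle, while Hbb-bh1 and Hbb-y, of the beta cluster, did not pass the test. Hbq1b, also of the alpha cluster, did not pass either (limma adjusted p = 0.884). Hbb-bh1 and Hbb-y were dim on every array, so these calls do not compare the clusters as wholes. Among the 4 chosen genes that were measured, limma called 2 at an adjusted p under 0.05, both higher. Of all genes tested, 0.181% were called and 0.167% were called higher. The groups did not overlap for Hbq1a and Hba-x, against 16.0% of all genes. The chosen genes and the lists below were picked with earlier results of these data known, so such shares are a description. Sickle lay wholly above control in 7.61% and wholly below in 8.36% of all genes. The median difference over all genes was -0.0067 on the log2 scale; 48.4% of all genes were higher in sickle, and 8.69% had an unadjusted limma p under 0.05.

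Hbq1a, the theta-globin gene, had log2 levels of 5.43, 4.95 and 4.96 in control replicates 1, 2 and 3. In sickle replicates 1, 2 and 3 it had 7.08, 7.82 and 7.28. Every sickle array lay above every control array, and the lowest sickle value was 1.65 above the highest control value. The spread inside a group was smaller, with a range of 0.48 in control and 0.74 in sickle. The means were 5.11 ± 0.28 and 7.39 ± 0.38 (SD, n = 3). The difference of 2.28 ± 0.21 (SE; 95% interval 1.79 to 2.78), a 4.87-fold rise, had a limma adjusted p of 0.0109. In control its level was near the 95th percentile of 1081 olfactory receptor genes, the reference for dim signal, and exceeded it in 1 of 3 control arrays. It lay above the median of those genes (2.93 to 2.97 in control). The 4.87-fold rise starts near that reference and may be compressed. In sickle it exceeded that percentile in 3 of 3 arrays, and its place among all genes moved from the 37.8 to 46.2 percentile in control to the 70.1 to 80.4 percentile in sickle.

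Hba-x, the embryonic zeta-globin gene, had log2 levels of 4.57, 4.94 and 4.44 in control replicates 1, 2 and 3. In the sickle replicates it had 6.39, 6.14 and 6.79. The groups again did not overlap, with a gap of 1.20 between the highest control and the lowest sickle array. The means were 4.65 ± 0.26 in control and 6.44 ± 0.33 in sickle (SD, n = 3). The difference was 1.79 ± 0.19 (SE; 95% interval 1.34 to 2.24), with a limma adjusted p of 0.0237. In control Hba-x lay under the 95th percentile of the olfactory receptor genes on 3 of 3 arrays, so its control value may be background. The sickle mean was 2.64-fold above the mean of that percentile over the control arrays (5.04). That ratio carries no sampling error, and the percentile is a reference for dim signal, not a detection limit. In sickle it lay above that percentile on 3 of 3 arrays, at the 56.4 to 64.3 percentile of all genes.

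The 2 rising genes did not have the same array as their highest. Hbq1a was highest in sickle replicate 2, at 2.71 above its control mean, and Hba-x was lowest there among the sickle arrays, at 1.49 above its own. In sickle replicate 3 both stood at a like distance from control, 2.17 for Hbq1a and 2.14 for Hba-x. The rise of Hba-x differed from that of Hbq1a by -0.49 (exact two-sided permutation p = 0.5, adjusted p = 0.5 over 4 pairs), less than the spread of that gap between sickle arrays (SD 0.64). That test cannot go below 0.1 with 3 arrays per group, and both rises start at or near background, so the rises were not ranked.

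Hbb-bh1, an embryonic beta-like gene, had log2 levels of 3.76, 3.55 and 3.84 in control and 3.21, 3.82 and 3.64 in sickle. Sickle replicate 1 was the lowest of the 6 arrays, and the other 2 sickle arrays lay within the control range. The difference was -0.16 ± 0.17 (SE; 95% interval -0.55 to 0.23) with a limma adjusted p of 0.797. Without sickle replicate 1 the difference was 0.015.

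Hbb-y, the embryonic epsilon-like gene, had log2 levels of 3.89, 3.86 and 3.50 in control and 3.58, 3.38 and 3.32 in sickle. The groups overlapped through control replicate 3, which lay below sickle replicate 1. The difference was -0.32 ± 0.14 (SE; 95% interval -0.64 to -0.0034) and did not pass (unadjusted p = 0.0481, limma adjusted p = 0.574). Both beta-cluster genes were dim: on 6 of 6 arrays they lay under the 95th percentile of the olfactory receptor genes (4.78 to 5.13) and above their median (2.89 to 2.97). Differences between values at that level may be compressed, so the intervals hold for the measured values only.

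**Figure D1:**
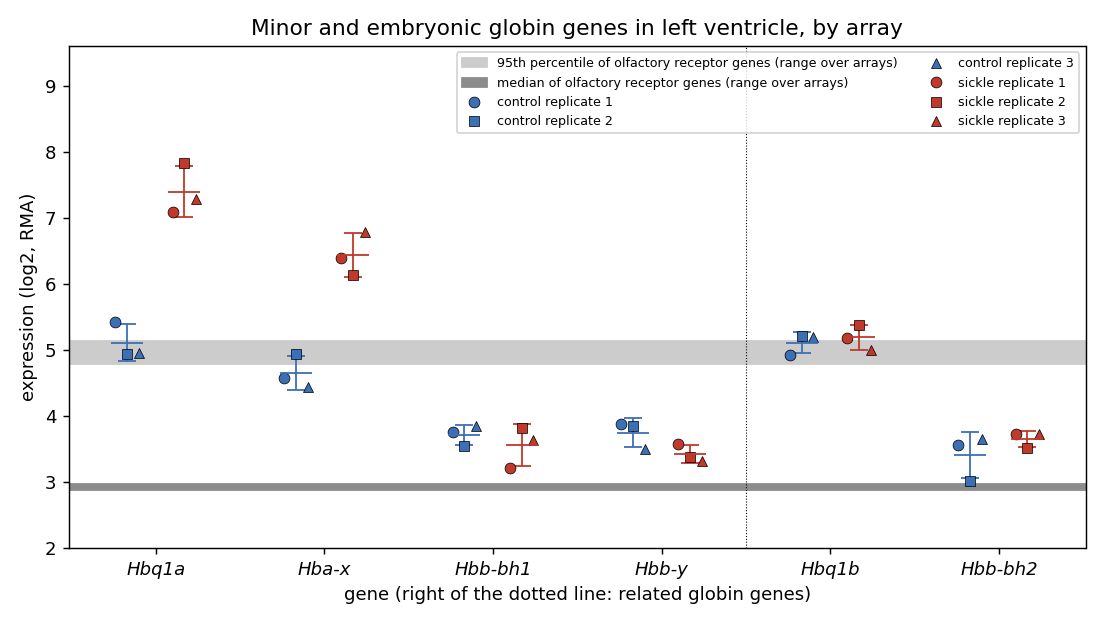
Log2 RMA levels of each globin gene on each array, with control in blue, sickle in red, the marker shape giving the replicate number, and mean and SD as bars (n = 3); grey bands give the median and the 95th percentile of 1081 olfactory receptor genes over the arrays. Hbq1a and Hba-x are separated between the groups and rise above the upper band in sickle, while Hbb-bh1, Hbb-y, Hbq1b and Hbb-bh2 overlap.

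The rise of Hbq1a differed from the differences of Hbb-bh1 and Hbb-y by 2.44 and 2.60 on the log2 scale, each gene's difference being the lower one. The exact two-sided permutation p was 0.1 for both pairs, the smallest that 3 against 3 arrays can give, and 0.133 after adjustment over 4 pairs. This design cannot reach 0.05 in that test. In each of these pairs all 3 sickle arrays lay on one side of all 3 control arrays.

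Hbq1b, the near copy of Hbq1a, did not pass the test. In the RefSeq gene order Hbq1b lies between the adult genes Hba-a1 and Hba-a2, and Hbq1a lies after Hba-a2, at the end of the cluster opposite to Hba-x. That order is of the reference genome. Both groups carried an engineered allele at this locus, and whether Hbq1b is intact in these mice was not tested. Hbq1b had 4.93, 5.22 and 5.19 in control and 5.18, 5.38 and 5.01 in sickle, with overlapping groups. Its difference was 0.08 ± 0.13 (SE; 95% interval -0.23 to 0.38; limma adjusted p = 0.884), and the sign turned to -0.014 without control replicate 1 and to -0.020 without sickle replicate 2. The gap of 2.21 between its difference and that of Hbq1a had an exact permutation p of 0.1 (adjusted p = 0.133; this pair was added after its values were seen). The genes are close copies, and whether the probes of one row also bind the transcript of the other was not tested.

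Among the other globins, 0 of 6 measured genes passed limma's test (median difference 0.03), where 0 of them reached an unadjusted p under 0.05. The beta-cluster gene Hbb-bh2 differed by 0.25 ± 0.17 (limma adjusted p = 0.701) and lay under the 95th percentile of the olfactory receptor genes on every array. Cygb, cytoglobin of fibroblast-like cells, differed by 0.29 ± 0.16 (limma adjusted p = 0.625). Cygb had 10.64 in sickle replicate 3 and 9.97 to 10.12 in the other 5 arrays. Mb, the myoglobin of heart muscle, was level at 13.30 ± 0.03 in control and 13.27 ± 0.02 in sickle (difference -0.04, 95% interval -0.23 to 0.16).

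**Figure D2:**
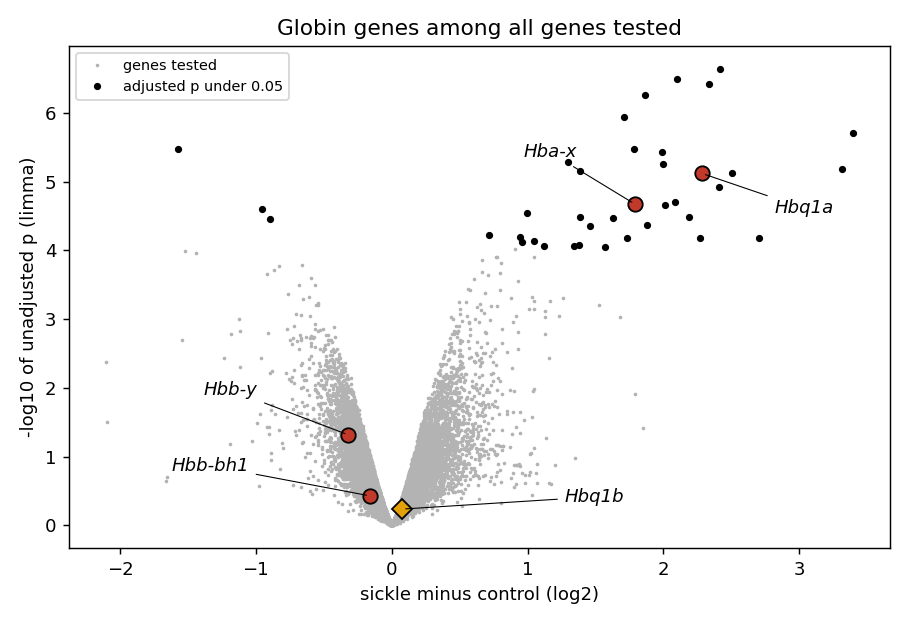
Sickle minus control difference (log2, horizontal axis) against -log10 of the unadjusted limma p (vertical axis) for 21506 genes in grey, with the 39 genes past an adjusted p of 0.05 in black. Hbq1a and Hba-x lie among the called genes on the right, and Hbb-y, Hbb-bh1 and the related gene Hbq1b lie in the body of the distribution.

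No neighbour of the globin loci passed the test. Of the 10 tested genes nearest the alpha-globin cluster, 5 on either side, 0 passed, and their median difference was 0.11 (9 of 10 higher in sickle, against 48.4% of all genes). Gm12108 differed by 0.29 ± 0.13 and Rhbdf1 by 0.19 ± 0.15, with adjusted p of 0.578 and 0.716. Nprl3, the gene next to Hba-x whose introns hold the alpha-globin enhancers, differed by 0.11 ± 0.09 (95% interval -0.09 to 0.32). At the beta-globin cluster the 10 nearest tested genes are all olfactory receptor genes, and 10 of 10 were under the background level on each array. Of these 0 passed, and Olfr68 (-0.57 ± 0.15, adjusted p = 0.408) and Olfr629 (0.27 ± 0.11, adjusted p = 0.564) had the smallest p. At an unadjusted p under 0.05, 0 of the alpha-cluster and 2 of the beta-cluster neighbours were found, each out of 10, where 8.69% of all genes were.

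Factors that act on globin genes gave no call among 21 measured, with a median difference of 0.12. Of the 21 genes, 16 were higher in sickle, against 48.4% of all genes. An unadjusted limma p under 0.05 was found for 4 of them, and for 8.69% of all genes. Ikzf1 (Ikaros, a factor of lymphoid and erythroid cells) had 5.19, 5.21 and 4.44 in control and 6.08, 6.22 and 6.05 in sickle, a difference of 1.17 ± 0.21 that did not pass (limma adjusted p = 0.164). Lmo2, a bridging protein of the erythroid GATA complex, differed by 0.37 ± 0.12 (adjusted p = 0.484). Described for their roles, Gata1 differed by 0.24 ± 0.11, Klf1, the CACCC-binding activator of adult globin, by 0.18 ± 0.17, and Bcl11a, the silencer of embryonic beta-like genes, by 0.34 ± 0.12. The adjusted p of these 3 genes were 0.595, 0.776 and 0.520. Sox6, another repressor of embryonic beta-like genes, had 7.38, 7.23 and 7.36 in control and 6.90, 7.18 and 6.76 in sickle, lower in 3 of 3 sickle arrays (difference -0.38 ± 0.13, unadjusted p = 0.0180, adjusted p = 0.496). Gata1 and Bcl11a lay above control in 3 of 3 sickle arrays, and Klf1 did so in sickle replicate 3 alone. Of the 21 genes, 8 lay wholly above control in sickle and 1 (Sox6) wholly below, against 7.61% and 8.36% of all genes. Gata1 was under the background level in each control array, and Klf1 was under it on every array except sickle replicate 3. The differences of Gata1 and Klf1 may therefore be compressed.

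Globin needs heme, and of 15 measured genes that supply heme and iron 1 rose, where 0.167% of all genes were called higher. Slc25a37, the mitochondrial iron importer mitoferrin, had 7.87, 8.05 and 7.87 in control and 9.50, 10.37 and 9.55 in sickle (difference 1.88 ± 0.22, limma adjusted p = 0.0341). Its highest array was sickle replicate 2, as for Hbq1a. Sickle lay wholly above control in 3 of the 15 genes and wholly below in 0, against 7.61% and 8.36% of all genes. Among these 3, Fech differed by 1.05 ± 0.15 and did not pass (limma adjusted p = 0.0604). The median of the heme list was 0.01, beside -0.01 over all genes. Without sickle replicate 3 the list had 0 calls (4 genes at an unadjusted p under 0.05).

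**Figure D3:**
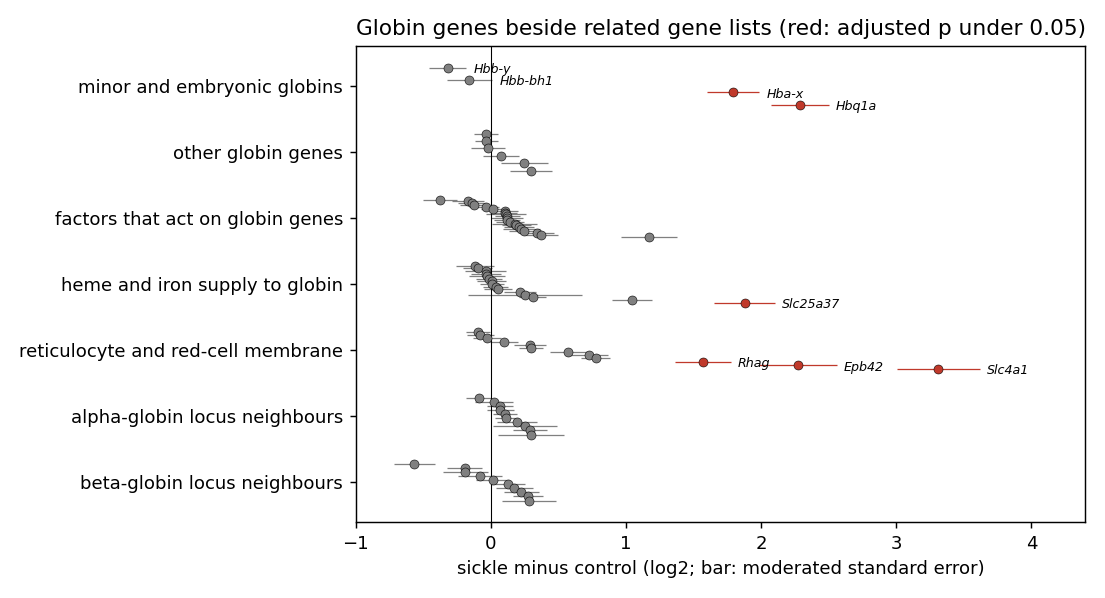
Sickle minus control difference (log2, points) with moderated standard error (bars) for each measured gene of each list, red where the adjusted p is under 0.05. Hbq1a and Hba-x lie in the range of the called red-cell and heme genes. The locus neighbours and the other globin genes lie between -0.57 (Olfr68) and 0.30 (Sh3pxd2b).

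Markers of other cells were read beside the globins. Red-cell membrane markers had 9 of 12 genes higher (48.4% of all genes were), with a median of 0.43. Of the 12 genes 3 rose, where 0.167% of all genes were called higher. The mean level of the list was 6.28 to 6.32 in control arrays and 6.96 to 7.18 in sickle arrays. The 3 were Slc4a1 (3.31 ± 0.30), Epb42 (2.27 ± 0.29) and Rhag (1.57 ± 0.21), with limma adjusted p from 0.0109 to 0.0484. Kel was under the background level on each array and Rhag was under it in each control array, so their differences may be compressed. Without sickle replicate 3 the list had 1 call. B-cell markers lay wholly above control in 3 of 3 genes, against 7.61% of all genes, and 1 of the 3 rose. Their mean level was 4.65 to 4.83 in control and 5.40 to 5.77 in sickle. Ms4a1 and Cd79b were under the background level in each control array. Cd79a rose by 1.12 ± 0.15 (limma adjusted p = 0.0484; not called without sickle replicate 3), while Ms4a1 (0.69 ± 0.12) and Cd79b (0.65 ± 0.16) did not pass. Markers of erythroid progenitors and dividing cells had 5 of 7 higher and 0 limma calls (4 of 7 at an unadjusted p under 0.05, against 8.69% of all genes), with Bub1 under the background level on each array. Mki67, the Ki-67 antigen of dividing cells, differed by 1.05 ± 0.31 (limma adjusted p = 0.446) and the mitotic kinase gene Cdk1 by 0.74 ± 0.27 (limma adjusted p = 0.534). Cdk1 was under the background level in each control array. The mean level of this list was 5.21 to 5.36 in control and 5.38, 5.78 and 5.83 in sickle replicates 1, 2 and 3. Platelet markers had a median of 0.03 with 0 limma calls among 7 genes (2 of 7 at an unadjusted p under 0.05: Ppbp, 0.61 ± 0.23, and Tubb1, 0.31 ± 0.13), and their mean level was 5.51 to 5.65 in control and 5.60 to 5.80 in sickle. The part of red cells, B cells and dividing cells in the rise of Hbq1a and Hba-x was not tested.

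Cardiomyocyte markers were bright on all arrays, with a mean level of 12.55 to 12.57 in control and 12.38 to 12.61 in sickle, as the label of ventricular tissue gives. Sickle replicate 3 stood apart from the other arrays, with a first principal component score of 43.3 against -15.1 to -2.31. In that array the fibroblast list was 1.63 and the macrophage list 1.27 above the control mean, against 0.08 to 0.28 in the other sickle arrays. Without sickle replicate 3 the differences of Hbq1a and Hba-x were 2.34 ± 0.24 and 1.62 ± 0.17, both at a limma adjusted p of 0.0378.

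**Figure D4:**
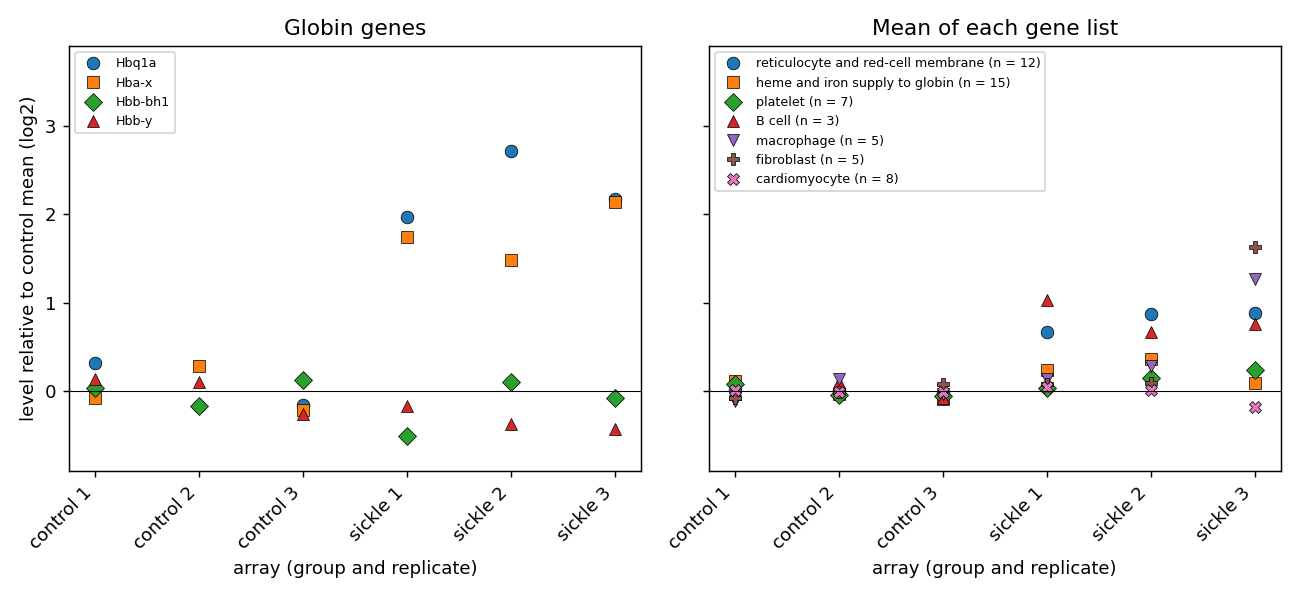
Level of each globin gene (left) and mean of each gene list (right) relative to the control mean on the log2 scale, for each of the 6 arrays. Hbq1a and Hba-x are between 1.49 and 2.71 in every sickle array; the fibroblast and macrophage lists are high in sickle replicate 3 alone.

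Single arrays decided some of the calls. Hbq1a was called in 4 of the 6 fits that leave out 1 array and lost its call without control replicate 2 (difference 2.20, adjusted p = 0.0939) and without control replicate 3 (2.21, adjusted p = 0.102). Hba-x was called in 2 of the 6 and lost its call without control replicates 1, 2 and 3 (differences 1.75, 1.93 and 1.69, adjusted p = 0.149, 0.0696 and 0.143) and without sickle replicate 1 (1.81, adjusted p = 0.0790). The sizes moved little, from 2.07 to 2.44 for Hbq1a and from 1.62 to 1.94 for Hba-x.

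**Figure D5:**
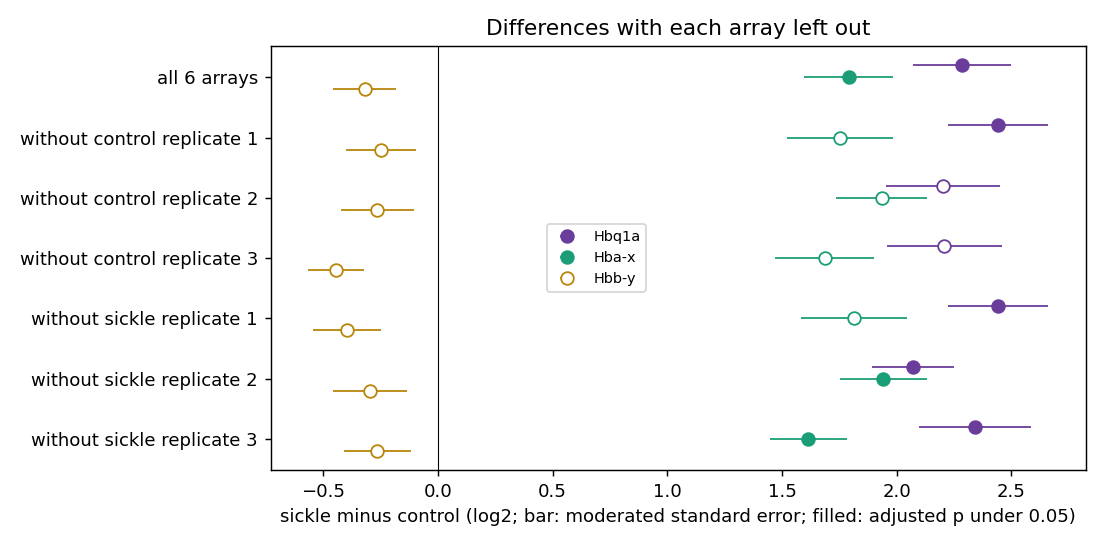
Sickle minus control difference (log2, points) with moderated standard error (bars) over all 6 arrays and with each array left out, filled where the adjusted p is under 0.05. Hbq1a and Hba-x keep their size in each fit while some calls are lost, and Hbb-y stays below 0 without a call.

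The genes with the most similar pattern were taken by the root mean square gap over the 6 arrays between levels relative to the control mean. For Hbq1a these were Cd24a (gap 0.12), Tent5c (0.17), Car2 (0.21), Epb42 (0.22) and Rsad2 (0.25). Their differences lay between 2.10 and 2.42, and each of these 5 genes was called, against 0.181% of all genes. Both follow from choosing genes close to Hbq1a on the same arrays. Cd24a, which encodes a surface antigen found on young blood cells, was nearest, with 10.10, 10.54 and 10.17 in the sickle arrays and 7.84 to 8.12 in control, so that sickle replicate 2 was highest for both genes. For Hba-x the nearest were Slfn14 (0.24), Bpgm (0.27), Emb (0.28), Prxl2a (0.30) and Tspo2 (0.32), of which Tspo2, a protein of the red-cell lineage, did not pass (1.53 ± 0.27, adjusted p = 0.171). Slfn14 had 5.81, 5.90 and 6.50 in sickle and 3.74 to 4.36 in control, with sickle replicate 3 highest as for Hba-x. The 2 sets of 5 share no gene, which follows from the measure, since Hbq1a and Hba-x themselves lie apart on these arrays. These gaps are over 6 arrays that fall into 2 groups and describe the pattern with no test.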

How the data were processed

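Left ventricular total RNA was measured on Affymetrix Mouse Gene 2.0 ST arrays, per the labels. The authors deposited log2 values after RMA, per the submitters' processing notes; RMA corrects background, normalises arrays by quantiles and summarises probes, which can compress differences of dim genes. Its settings, a batch and the genome build behind the array are not named in these sources. Of 25293 rows, 22030 had 1 gene symbol; the brightest row stood for a gene, giving 21506 genes. Groups came from the titles. Limma 3.58.1 (R 4.3.3) fitted group alone (degrees of freedom 4 residual, 3.61 prior) in a two-sided test with Benjamini-Hochberg adjustment over all genes at 0.05; the procedure was tested on simulated data. Differences are sickle minus control. Arrays give no depth, so their number limits precision. Olfactory receptor genes served as a reference for dim signal. Named list genes are those past the adjustment, otherwise the 2 with the smallest p. Others were described for their roles (Hbq1b, Mb, Nprl3, Gata1, Klf1, Bcl11a and Sox6) or for lying wholly above control (Fech), and were named with their values known. Members and lists were chosen with earlier results of these data known. Some genes of the lists are not reported here. Alternatives covered the variance model, dim genes, normalisation, array weights, rows, the replicate block and leaving out arrays. Figures were drawn with matplotlib 3.10.9.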

Additional observations from a re-analysis of the deposited data

How the results depend on the processing

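Hbq1a and Hba-x were higher in sickle under every alternative run. Over the settings that keep all 6 arrays the difference ran from 2.26 to 2.28 for Hbq1a and from 1.68 to 1.79 for Hba-x, and 7 of 9 such settings kept each call. The calls were lost without shared variance (Hbq1a 2.28 and Hba-x 1.79, adjusted p = 0.376 for both), a setting under which 0 genes were called by an ordinary linear model (1740 at an unadjusted p under 0.05, against 39 calls by limma). They were also lost with the replicate number as a block (2.28, adjusted p = 0.0631, and 1.79, adjusted p = 0.114), which called 12 genes. The numbers were not taken as pairs, since the deviations of same-numbered arrays correlated at 0.11, -0.05 and 0.05. With 1 array left out, the differences ran from 2.07 to 2.44 for Hbq1a, 1.62 to 1.94 for Hba-x, -0.44 to -0.25 for Hbb-y and -0.29 to 0.015 for Hbb-bh1, with -0.020 to 0.17 for Hbq1b. The direction of Hbb-bh1 turned without sickle replicate 1 (0.015), and that of Hbq1b without control replicate 1 (-0.014) and without sickle replicate 2 (-0.020). The gap to the difference of Hbq1a ran from -0.73 to -0.13 for Hba-x, -2.58 to -2.30 for Hbb-bh1, -2.84 to -2.37 for Hbb-y and -2.46 to -2.07 for Hbq1b. With 1 array left out, the count of called genes ran from 4 (without control replicate 3) to 36; over the other settings it ran from 0 to 50. The filter on dim genes removed Hbb-bh1 and Hbb-y, which then had no value. Signals near the background level limit what can be said of the beta-cluster genes.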

Other observations

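One array row is annotated jointly to the adult beta-globin genes Hbb-b1, Hbb-bs and Hbb-b2 and stands for none of them alone. Both groups carried engineered alleles at the beta-globin locus, and whether these mouse genes are present in the animals was not tested. It was dim in both groups, at 2.49, 2.59 and 2.55 in control and 2.72, 2.75 and 3.01 in sickle, under the median of the olfactory receptor genes on 5 of 6 arrays. The groups did not overlap, but the difference of 0.28 ± 0.11 (SE) did not pass when all 25293 rows were tested (limma adjusted p = 0.564).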
